A study of Mus musculus with 4 samples.

Results

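The genes of the mitochondrial ribosomal proteins, 78 of the 22554 genes measured, were compared between lung ILC2s treated with compound 5D and ILC2s given vehicle. They were taken by type and name, as every protein-coding gene whose symbol starts with Mrpl or Mrps and a digit. The rule itself used no measured value, but the genes to study were chosen with earlier results of these data known. ILC2s, group 2 innate lymphoid cells, are the tissue-resident lymphocytes that make type 2 cytokines, and compound 5D blocks Orai channels, the pores through which calcium enters once the internal stores are empty. The cells were sorted from the lungs of BALB/c mice aged 6 weeks and kept in culture overnight in the presence of IL-33, IL-7 and IL-2, either with 5D in 2 libraries or with vehicle in 2 libraries, so that both groups carried the same cytokines and differed in the compound. RNA was sequenced in bulk after low-input cDNA synthesis, and the values are estimated counts per gene. No source ties the libraries of a group to separate mice, so p-values, standard errors and intervals rest on the spread between these libraries, which may be technical.

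Mitochondria keep ribosomes of their own. The mitoribosome translates only the mRNAs of the mitochondrial genome, which encode membrane proteins of the respiratory chain and of ATP synthase, and it joins rRNAs transcribed inside the organelle to proteins that are encoded in the nucleus, made in the cytosol and imported. Many of these proteins descend from those of bacterial ribosomes, whereas others stand where bacterial ribosomes have no equivalent. By their place in the mitoribosome, 51 of the genes encode proteins of the large subunit, which forms peptide bonds, and 26 encode proteins of the small subunit, which reads the mRNA. These include Mrps30 and Mrps18a, whose products sit in the large subunit in spite of their names. The remaining gene, Mrps36, keeps a ribosomal name although its product is now placed in the 2-oxoglutarate dehydrogenase complex of the citric acid cycle. By the unified protein names, which go by position in the ribosome, 46 of the proteins have a bacterial counterpart and 31 have none, with Mrps36 left out of that count.

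The libraries held 20096513 to 28697196 counts, and the genes of mitochondrial ribosomal proteins took 0.558% to 0.564% of them. A sum over 12 ILC2 markers stood at 10798 and 10966 normalized CPM with vehicle and at 10119 and 10559 with 5D, where normalized CPM are counts scaled to library size and the upper quartile. Markers of other cell types were low where present, the largest sum being 39.5 normalized CPM for the 2 dendritic cell markers in the table. None of the 3 eosinophil markers was in it, so eosinophils could not be assessed, and some other lists were only partly in it. The part of other cell types in the results was not tested. In such bulk libraries, fewer cells of a type and less RNA per cell cannot be told apart.

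All 78 genes were expressed well above the filter on low counts, and all 78 were tested. Their mean levels ran from 23.6 normalized CPM to 240.3 normalized CPM, with a median near 60 in every library (59.7 and 59.9 with vehicle, 61.4 and 60.8 with 5D). None of the 78 passed edgeR's quasi-likelihood test at an adjusted p-value under 0.05, where 17 of 17650 tested genes, 0.0963%, did. None reached an unadjusted p-value under 0.05 in either direction, while 7.34% of all genes tested did, and 9.34% of the 6819 genes whose mean level was at or above that of the lowest mitochondrial ribosomal protein gene. The smallest p-value after Benjamini-Hochberg adjustment (edgeR's quasi-likelihood test) was 0.747, for Mrps36. DESeq2's Wald test and limma-voom likewise called none of them at either threshold.

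The differences between the groups were small and went both ways. With 5D 41 genes had a higher fitted level and 37 a lower one. The median log2 fold change was 0.0045, with quartiles of -0.049 and 0.032, beside a median of -0.0016 and quartiles of -0.16 and 0.14 over all genes tested. At matched levels, in the 6819 genes, the quartiles were -0.061 and 0.071. The direction of the genes with the smallest changes depended on the scaling, since TMM factors gave 46 higher and 32 lower, and library totals alone gave 45 and 33.

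A result that misses the threshold does not show equal levels, so the 95% intervals of the log2 fold changes are given. Every one of the 78 intervals held 0. All 78 lay inside a change of 1.5-fold in either direction, and 67 lay inside 1.25-fold. Each interval is for a single gene, with no allowance for 78 at once, and may not cover the spread between mice. The lowest bound was -0.35, for Mrpl53, and the highest was 0.41, for Mrps22. Intervals were narrowest for the abundant Mrpl33, at 0.11 to either side, and widest for Mrpl50, at 0.28.

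**Figure D1:**
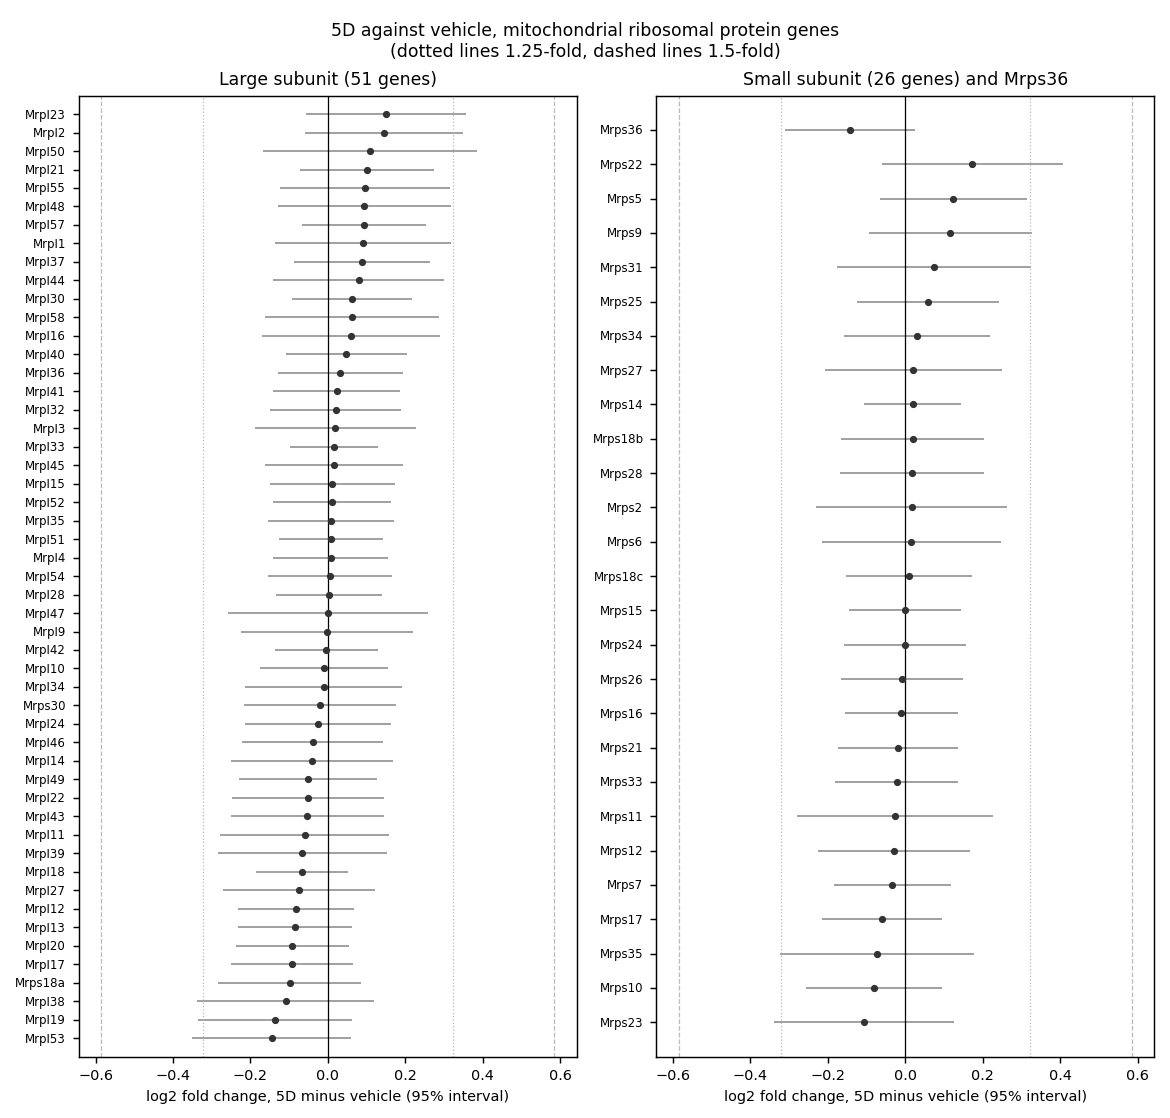
Log2 fold change of each mitochondrial ribosomal protein gene, 5D minus vehicle, on the x axis, with its 95% interval from edgeR's quasi-likelihood fit over 2 libraries a group. All 78 bars cross 0 and stay inside the dashed lines at 1.5-fold; Mrps36 stands above the small subunit genes.

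The median absolute log2 difference of a gene was 0.073 between the vehicle libraries, 0.096 between the 5D libraries and 0.046 between the group means, which as means of 2 libraries vary less than single ones. The widest gap within a group was 0.36, for Mrpl50, at 32.4 and 41.7 normalized CPM in the 5D libraries. In 17 of the 78 genes, 21.8%, the groups did not overlap, 10 of them higher with 5D and 7 lower. Over all genes tested that share was 37.6%, and among those at or above the lowest level of the 78 it was 39.9%.

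**Figure D2:**
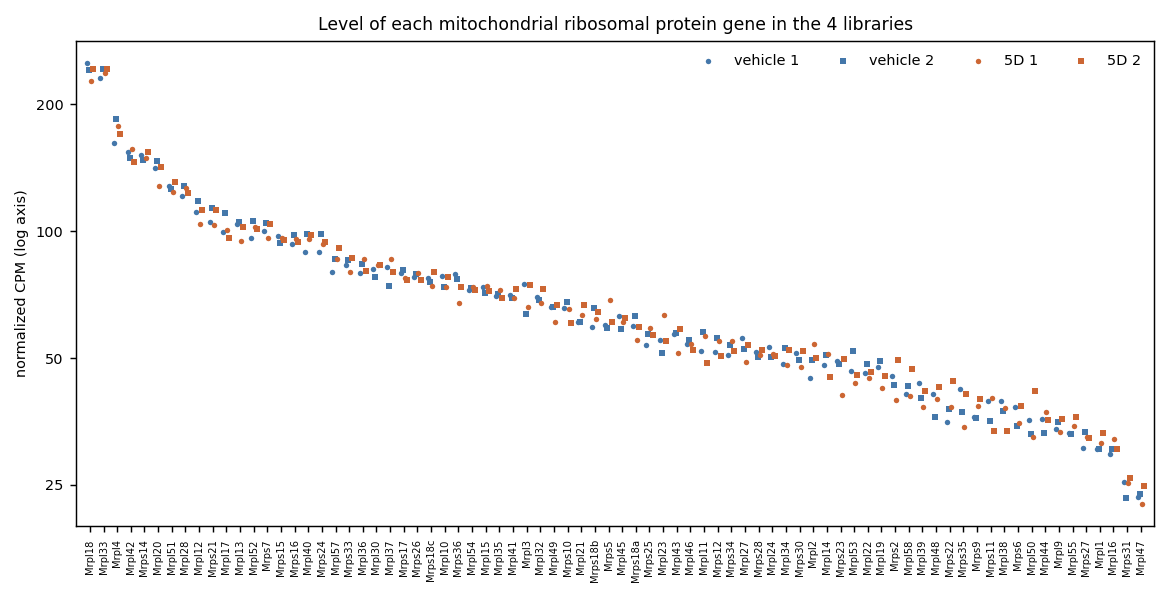
Normalized CPM (log axis) of the 78 genes in each of the 4 libraries, ordered by mean level, with vehicle in blue and 5D in orange. For most genes the symbols of the 2 groups are interleaved.

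Summed over all 78 genes the libraries were nearly level. The sum was 5585 and 5663 normalized CPM with vehicle and 5544 and 5664 with 5D, so the 5D libraries lay on both sides of the vehicle pair. The means were 5624 ± 54.5 and 5604 ± 84.9 normalized CPM (SD, n = 2). With 2 libraries against 2, an exact permutation test cannot give a two-sided p-value below 0.333, and none is given for sums. Large subunit genes summed to 2.26 and 2.25 times the small subunit genes with vehicle, and to 2.25 and 2.24 times with 5D.

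Of the 51 large subunit genes, 28 had a higher fitted level and 23 a lower one with 5D, at a median log2 fold change of 0.0056, and none passed the test. Mrpl12 encodes the protein that, in several copies, forms the flexible stalk to which translation factors bind. It measured 110.9 and 118.2 normalized CPM with vehicle and 103.8 and 112.4 with 5D, so the groups overlapped, at a log2 fold change of -0.083 ± 0.069 (SE). Mrpl10, which anchors the stalk, stood at 78.4 and 73.9 with vehicle and at 73.6 and 77.7 with 5D. Mrpl11, at the base of the stalk, stood at 51.9 and 57.7 with vehicle and at 56.5 and 48.6 with 5D. The 3 stalk genes thus overlapped between the groups, each with an interval that held 0.

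Mrpl45 encodes the protein through which the large subunit is held at the inner membrane, close to where the new chains are inserted. It stood at 62.9 and 58.6 normalized CPM with vehicle and 60.7 and 62.1 with 5D, both 5D libraries lying between the vehicle libraries. Mrpl44, a protein with an RNase III fold, was at 35.9 and 33.2 with vehicle and 37.3 and 35.7 with 5D. Mrpl58, a peptidyl-tRNA hydrolase built into the large subunit that can free stalled chains, was at 41.1 and 42.9 with vehicle and 40.6 and 47.1 with 5D. Mrpl3, from the core of the subunit, was at 74.7 and 63.8 with vehicle and 66.0 and 74.4 with 5D, the widest gap within the vehicle pair among all 78 genes at 0.23 on the log2 scale. In each of these 4 genes the groups overlapped.

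Of the 3 highest and 3 lowest log2 fold changes among genes with a mean of at least 100 counts, 4 belonged to the large subunit. At the lower end stood Mrpl53 (ENSMUSG00000030037, chr6:83109040-83109939 on mm10), with 46.6 and 52.0 normalized CPM with vehicle and 43.6 and 45.5 with 5D. Both 5D libraries were below both vehicle libraries, at a log2 fold change of -0.15 ± 0.094 (SE) and an adjusted p-value of 0.808 in edgeR's quasi-likelihood test. Mrpl19 had 47.5 and 49.1 with vehicle and 42.4 and 45.4 with 5D, at -0.14 ± 0.091. At the upper end, Mrpl23 had 55.1 and 51.4 with vehicle and 63.4 and 54.9 with 5D, at 0.15 ± 0.095, with overlapping groups. Mrpl2, whose protein lies at the peptidyl transferase centre, had 44.7 and 49.4 with vehicle and 53.9 and 50.1 with 5D, at 0.14 ± 0.093, with both 5D libraries higher. These values moved with single libraries, ranging without 1 of them from -0.23 to -0.068 for Mrpl53, from -0.19 to -0.094 for Mrpl19, from 0.038 to 0.25 for Mrpl23 and from 0.071 to 0.21 for Mrpl2. Without 5D replicate 2, Mrpl23 had the smallest unadjusted p-value of the 78 in edgeR's quasi-likelihood test, with an adjusted value of 0.847 or more for every one of them.

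The 26 small subunit genes split evenly, 13 with a higher and 13 with a lower fitted level, at a median log2 fold change of 0.0041. Mrps12, whose protein lies at the decoding centre, measured 51.6 and 55.9 normalized CPM with vehicle and 54.8 and 50.5 with 5D. Mrps16, for which human mutations impair mitochondrial translation, measured 93.4 and 98.1 with vehicle and 96.0 and 94.1 with 5D. The groups overlapped in both. Mrps22 (ENSMUSG00000032459, chr9:98588730-98601660), a protein without a bacterial counterpart, had the highest log2 fold change of all 78 genes, over all 4 libraries, at 0.17 ± 0.11 (SE). It measured 35.3 and 37.9 with vehicle and 38.2 and 44.2 with 5D, so that the lower 5D library was only just above the vehicle pair, and its adjusted p-value in edgeR's quasi-likelihood test was 0.790. Its log2 fold change ranged from 0.061 without 5D replicate 2 to 0.27 without 5D replicate 1, and in 3 of the 4 fits without a library it was not the highest.

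The Mrps18 paralogs resemble each other in sequence and occupy different places in the mitoribosome. Only Mrps18c holds the position of a bacterial protein, and Mrps18a and Mrps18b were counted among the genes without a bacterial counterpart. Mrps18c, in the small subunit, stood at 77.4 and 75.6 normalized CPM with vehicle and 74.2 and 79.8 with 5D. Mrps18b, elsewhere in the small subunit, stood at 59.2 and 65.7 with vehicle and 62.0 and 64.5 with 5D. Mrps18a, in the large subunit, stood at 59.4 and 63.0 with vehicle and 55.0 and 59.2 with 5D, the lowest log2 fold change of the paralogs at -0.099 ± 0.084 (SE). None of the 3 passed the test. Mrps36, the gene outside the mitoribosome, stood at 79.0 and 77.2 with vehicle and 67.7 and 73.7 with 5D, with no overlap and a log2 fold change of -0.14 ± 0.077, which ranged from -0.21 to -0.087 without a library.

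Sorted by ancestry instead of subunit, the genes with a bacterial counterpart had a median log2 fold change of -0.00013 and those without had 0.010. The groups did not overlap for 12 of the former, 26.1%, and for 4 of the latter, 12.9%, both under the 37.6% of all genes tested, and the difference between the classes was not tested. No gene of either class reached an unadjusted p-value under 0.05.

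Between genes, levels can be compared only per length. Mean levels over the 4 libraries, per kilobase of all annotated exons, ran from 4.48 normalized CPM for Mrps35 to 171.9 for Mrpl18, a range of 38.4-fold around a median of 27.3. The 5 highest were Mrpl18 (171.9 ± 7.13, SD over 4 libraries), Mrps21 (147.0 ± 6.91), Mrpl52 (91.4 ± 3.56), Mrpl28 (90.4 ± 2.35) and Mrpl54 (88.5 ± 0.844). Mrpl18 and Mrps21 were separated from each other and from the rest by more than their SDs, whereas Mrpl52, Mrpl28 and Mrpl54 were not. The 5 lowest were Mrps35 (4.48 ± 0.412), Mrpl48 (4.90 ± 0.329), Mrpl47 (5.35 ± 0.218), Mrps9 (6.54 ± 0.324) and Mrpl1 (7.31 ± 0.313). Along the whole order, 56 of the 77 neighbouring pairs lay closer than the larger SD of the pair. The large subunit had a median of 29.0 and the small subunit 24.7 normalized CPM per kilobase, over ranges that covered each other.

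The order also depends on the length used. With the median length of the annotated transcripts the range widened to 60.0-fold, the order of the 78 genes had a Spearman rho of 0.653 with the first (a description over genes that share the libraries), and 5 of the 10 highest and 5 of the 10 lowest genes were shared. Of the 5 highest by exon length, Mrpl18 stayed at rank 1 by median transcript length. Mrps21, Mrpl52, Mrpl28 and Mrpl54 ranked 4, 5, 19 and 15. Of the 5 lowest by exon length, Mrps35 ranked 44 and Mrpl48 56 of the 78 by median transcript length. Mrpl47, Mrps9 and Mrpl1 ranked 74, 69 and 78. Without any 1 library the range by exon length stayed between 37.7-fold and 39.1-fold.

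**Figure D3:**
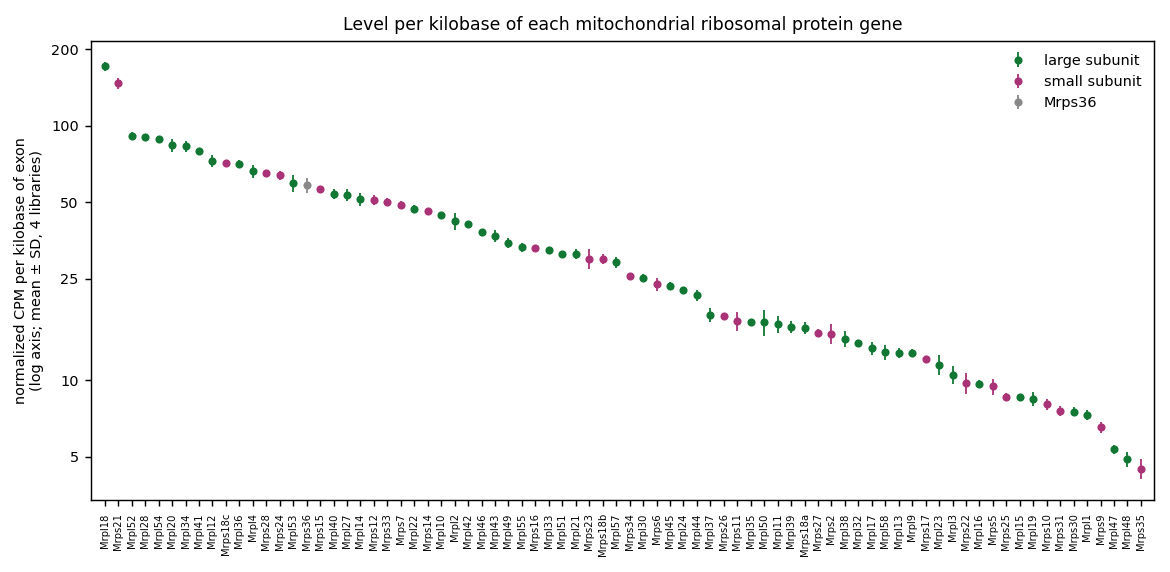
Normalized CPM per kilobase of annotated exon (log axis, mean ± SD over the 4 libraries) for the 78 genes from highest to lowest, coloured by subunit. Mrpl18 at 171.9 and Mrps21 at 147.0 stand above a gradual slope in which large and small subunit genes mix.

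The rest of the mitochondrial translation system was followed with lists of its other parts. The 5 mitoribosome proteins with other names, Dap3, Ptcd3, Chchd1, Aurkaip1 and Gadd45gip1, had a median log2 fold change of -0.0070, and none reached an unadjusted p-value under 0.05. Dap3, a GTP-binding protein of the small subunit, measured 86.6 and 90.4 normalized CPM with vehicle and 92.4 and 87.8 with 5D. Ptcd3 was at 69.4 and 84.7 with vehicle and 75.8 and 85.8 with 5D, and Aurkaip1 was at 117.8 and 118.5 with vehicle and 114.3 and 118.0 with 5D. Among 26 assembly factors, which process the rRNAs and build the subunits, 14 had a higher and 12 a lower fitted level, at a median of 0.010. None reached an unadjusted p-value under 0.05. The nearest were the helicase Ddx28, at 24.9 and 24.4 with vehicle and 20.3 and 21.2 with 5D, and the endoribonuclease Ybey, at 8.05 and 5.75 with vehicle and 8.95 and 9.09 with 5D.

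Of 16 translation and mRNA-binding factors, 2 had a higher level in 5D-treated cells and an unadjusted p-value under 0.05, as did 618 of all 17650 genes tested, 3.5%, and none passed after adjustment. Gfm1, the elongation factor that moves the ribosome along the mRNA, measured 62.5 and 58.1 normalized CPM with vehicle and 68.5 and 71.7 with 5D. Its log2 fold change was 0.22 ± 0.080 (SE), with an adjusted p-value of 0.566 in edgeR's quasi-likelihood test. Mtif3, an initiation factor, measured 20.9 and 23.7 with vehicle and 30.7 and 25.7 with 5D, at 0.34 ± 0.13. In both genes the 5D libraries were above both vehicle libraries. Tufm, the elongation factor that brings the aminoacyl-tRNAs, was at 110.1 and 111.8 with vehicle and 110.1 and 108.8 with 5D.

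Of the RNAs that the mitoribosome contains and reads, 2 of 13 mRNAs and 1 of 2 rRNAs passed the adjusted test, all lower with 5D. All 13 mitochondrially encoded protein mRNAs had lower levels in both 5D libraries than in both vehicle libraries, as had 18.8% of all genes tested, with log2 fold changes from -0.39 to -0.16 around a median of -0.28. At an unadjusted p-value under 0.05, 12 of the 13 were lower, beside 3.84% of all genes tested, and those that fell at an adjusted one were mt-Nd2 and mt-Nd4. mt-Nd2, a complex I subunit, measured 293.9 and 289.2 normalized CPM with vehicle and 231.2 and 214.1 with 5D, at -0.39 ± 0.053 (SE) and an adjusted p-value of 0.0253 in edgeR's quasi-likelihood test. mt-Nd4, another complex I subunit, measured 367.6 and 364.4 with vehicle and 297.1 and 272.1 with 5D, at -0.36 ± 0.053. Without 5D replicate 2 the adjusted p-values in edgeR's quasi-likelihood test were 0.0797 for mt-Nd2 and 0.109 for mt-Nd4. Summed, the 13 mRNAs took 7037 and 6790 normalized CPM with vehicle and 5903 and 5739 with 5D, a difference of -15.8%.

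Of the rRNAs of the mitoribosome, 1 passed. mt-Rnr1, the rRNA of the small subunit, fell from 335.6 and 385.6 normalized CPM with vehicle to 253.9 and 202.4 with 5D, at a log2 fold change of -0.66 ± 0.093 (SE) and an adjusted p-value of 0.0253 in edgeR's quasi-likelihood test; DESeq2's Wald test gave 0.0501. mt-Rnr2, the rRNA of the large subunit, measured 2433 and 3474 with vehicle and 1865 and 2166 with 5D, at -0.55 ± 0.12, and did not pass with an adjusted p-value of 0.234 in edgeR's quasi-likelihood test. That call depended on the fit, since the adjusted p-value in edgeR's quasi-likelihood test was 6.29e-05 with the replicate number as a block and 0.00991 with no filter. Its log2 fold change ranged from -0.27 without vehicle replicate 2 to -0.79 without vehicle replicate 1, and mt-Rnr2 passed in both of these fits, where the vehicle group holds 1 library. How completely the cDNA step captured rRNA was not tested.

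Set beside these transcripts, all 78 mitochondrial ribosomal protein genes had a fold change above the highest of the 13 mRNAs over all 4 libraries. Without 5D replicate 2 this no longer held, since the lowest of the 78 stood at -0.26, below the median of the 13 mRNAs at -0.22. Without vehicle replicate 1 the lowest of the 78 stood at -0.23, close to the median of the 13 at -0.25. The same 2 values were -0.16 and -0.32 without vehicle replicate 2, and -0.21 and -0.32 without 5D replicate 1. The highest of the 13 is not given for these fits, so whether the 78 stayed above it is not known. In the fit of all 4 libraries, the 95% interval of 72 of the 78 lay wholly above the median of the 13, and for 6 it reached down to it. The difference between the groups of genes was not tested. The cytosolic ribosomal proteins, 81 genes, had a median log2 fold change of -0.0016 and none at an unadjusted p-value under 0.05, the nearest being Rps14 at -0.092 ± 0.045 (SE) and Rpl37a at 0.078 ± 0.039. The respiratory chain genes in the nucleus were taken by name alone, with no check of a place in the chain. Their names start with Nduf, Cox and a digit, Uqcr or Atp5, or are Cyc1 and Sdha to Sdhd. The 99 tested had a median of 0.011 and 1 gene higher at an unadjusted p-value under 0.05, beside 3.5% of all genes tested. That gene was Sdha, the flavoprotein of complex II, at 295.0 and 294.9 normalized CPM with vehicle and 332.5 and 319.1 with 5D, with an adjusted p-value of 0.550 in edgeR's quasi-likelihood test. Atp5g3, a subunit of ATP synthase, had the next smallest p-value of that list at a log2 fold change of -0.084 ± 0.041.

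**Figure D4:**
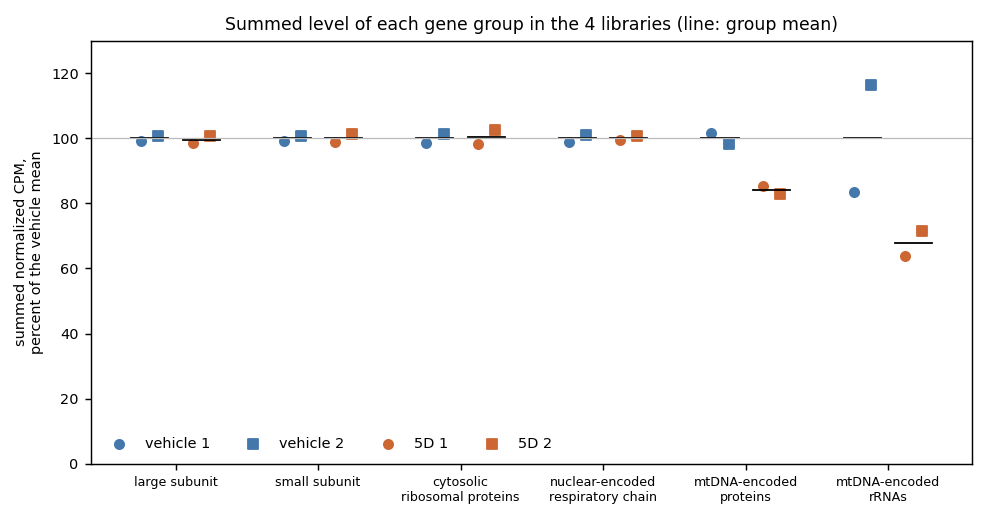
Summed normalized CPM of each gene group in each library, as a percentage of that group's vehicle mean, with the group mean as a line. The 4 libraries lie close to 100 for both subunits, the cytosolic ribosomal proteins and the nuclear respiratory chain, and the 5D libraries lie below the vehicle libraries for the mRNAs and rRNAs of mitochondrial DNA.

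**Figure D5:**
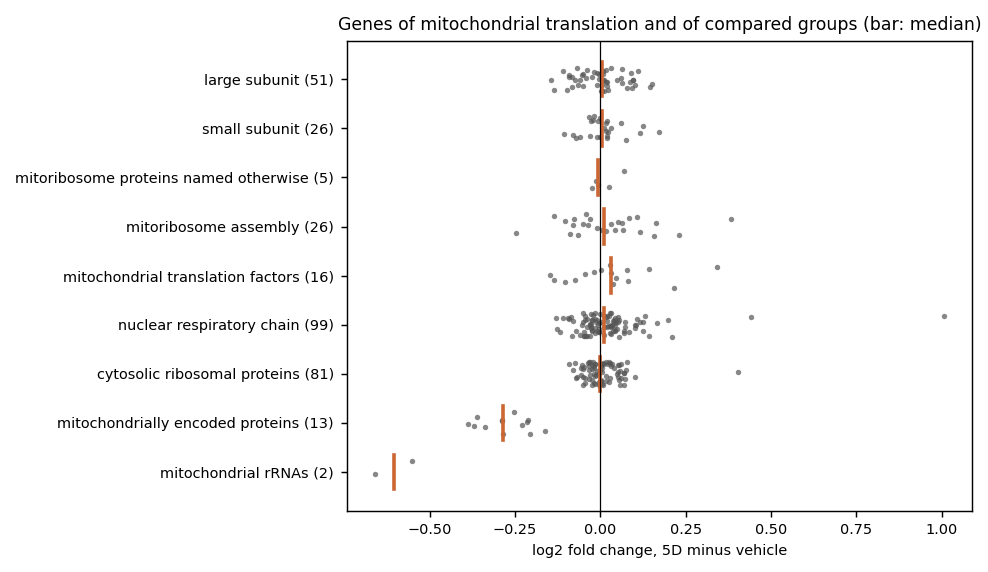
Log2 fold change, 5D minus vehicle, of each gene (points) by list, with the median as an orange bar and the number of tested genes in brackets. The lists of nuclear genes have medians from -0.0070 to 0.030, and the mitochondrially encoded proteins and rRNAs lie at -0.28 and -0.61.

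In their genomic position, many of these genes share a start region with a neighbour. The start of 33 of the 78 genes, 42.3%, lay within 1000 bp of the start of a protein-coding gene on the opposite strand. The share was 16.5% of 12764 tested protein-coding genes and 19.6% of the 6610 at or above the lowest level of the 78. In 21 of them the distance was under 200 bp. Mrpl36 starts 29 bp from Ndufs6, a complex I subunit, Mrpl32 75 bp from the proteasome subunit Psma2, Mrps12 172 bp from Sars2, the mitochondrial seryl-tRNA synthetase, and Mrpl43 779 bp from Twnk, the mitochondrial DNA helicase. Mrpl46 and Mrps11, from different subunits, start 412 bp from each other. Of the 32 different partners that were tested, none reached an unadjusted p-value under 0.05, and their median log2 fold change was -0.033.

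A promoter window, from 250 bases before to 50 after the start, was given by RefSeq on GRCm38.p6 for 69 of the 78 genes, in 75 windows, and was searched on both strands for motifs of factors known to act at nuclear genes of mitochondria. The ETS motif CCGGAAG, the site type of GABP (also called NRF2), occurred in 26 windows, 34.7%, beside 8.86% of all 32851 windows. The YY1 motif AAGATGGC occurred in 12 member windows, 16%, beside 2.75%. The NRF1 motif CGCATGCG, which reads the same on both strands, occurred in 7, 9.33%, beside 1.87%. The E-box CACGTG, also its own reverse complement, occurred in 7 windows, 9.33%, beside 7.15%, and the SP1 motif GGGCGG in 39, 52.0%, beside 35.7%. Per gene, and beside the 10029 tested protein-coding genes with a window, the shares were 37.7% and 20.3% for ETS, 17.4% and 5.25% for YY1, 10.1% and 4.38% for NRF1, 7.25% and 11.7% for the E-box, and 49.3% and 68.2% for SP1. A gene counted if any of its windows held the motif, so genes with more windows had more chances of a match. Neither the number of windows per gene nor the level of the genes was matched, and the differences in share were not tested. The motifs do not contain each other, and a match is a description of letters, not a bound site.

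At least 1 of the ETS, YY1 and NRF1 motifs was found in 38 of the 69 genes, 55.1%, beside 27.5% of the tested protein-coding genes. Genes with the ETS motif had a median log2 fold change of -0.0093, those with YY1 -0.0027 and those with NRF1 -0.0096, beside 0.0083 for the genes with a window and no ETS motif. Windows are printed for the genes at either end of the fold changes, Mrps22 and Mrpl53, for Mrpl18, the highest per kilobase, and for Mrpl32 and Mrps12, which share a start region with Psma2 and Sars2. Capitals mark the matches to ETS (CCGGAAG or CTTCCGG), YY1 (AAGATGGC or GCCATCTT) and NRF1 (CGCATGCG), and each window is read from its own gene's strand.
Mrps22, chr9:98601630-98601929, minus strand: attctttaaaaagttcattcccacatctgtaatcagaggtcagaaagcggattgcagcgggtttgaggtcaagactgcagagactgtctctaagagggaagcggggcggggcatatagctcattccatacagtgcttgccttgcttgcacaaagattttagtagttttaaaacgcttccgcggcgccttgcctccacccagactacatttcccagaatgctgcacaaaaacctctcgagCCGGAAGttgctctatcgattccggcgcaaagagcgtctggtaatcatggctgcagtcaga
Mrpl53, chr6:83108858-83109157, plus strand: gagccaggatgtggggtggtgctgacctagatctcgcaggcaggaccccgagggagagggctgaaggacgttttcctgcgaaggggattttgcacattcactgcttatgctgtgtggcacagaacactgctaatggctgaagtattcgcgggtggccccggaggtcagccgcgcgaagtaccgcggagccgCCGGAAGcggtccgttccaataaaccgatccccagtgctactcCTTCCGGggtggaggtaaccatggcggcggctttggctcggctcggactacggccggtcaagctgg
Mrpl18, chr17:12916042-12916341, minus strand: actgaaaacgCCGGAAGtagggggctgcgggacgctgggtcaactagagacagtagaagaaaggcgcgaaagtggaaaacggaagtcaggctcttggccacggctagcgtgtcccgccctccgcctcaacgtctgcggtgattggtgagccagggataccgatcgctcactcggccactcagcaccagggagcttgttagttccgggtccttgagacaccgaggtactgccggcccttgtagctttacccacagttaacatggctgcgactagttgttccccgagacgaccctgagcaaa
Mrpl32, chr13:14612988-14613287, minus strand: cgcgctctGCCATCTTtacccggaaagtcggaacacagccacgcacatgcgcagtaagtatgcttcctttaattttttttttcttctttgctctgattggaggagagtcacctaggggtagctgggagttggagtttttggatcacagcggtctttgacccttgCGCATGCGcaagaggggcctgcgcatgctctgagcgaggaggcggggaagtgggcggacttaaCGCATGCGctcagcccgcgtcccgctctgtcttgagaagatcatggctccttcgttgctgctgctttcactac
Mrps12, chr7:28741772-28742071, minus strand: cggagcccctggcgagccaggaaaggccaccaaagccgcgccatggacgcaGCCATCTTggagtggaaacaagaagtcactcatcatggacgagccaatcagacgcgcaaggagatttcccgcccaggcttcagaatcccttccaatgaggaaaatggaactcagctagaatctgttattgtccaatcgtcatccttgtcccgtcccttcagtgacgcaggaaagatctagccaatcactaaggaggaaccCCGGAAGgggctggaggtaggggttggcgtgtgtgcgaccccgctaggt
Mrps22 and Mrpl53, with the highest and the lowest log2 fold change over all 4 libraries, both held ETS matches, 1 and 2. Mrpl18 held 1. Mrpl32 held no ETS match but 2 of NRF1 and 1 of YY1, and Mrps12 held 1 of ETS and 1 of YY1.

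Some counts can be shared with other genes. Exons of 33 of the 78 genes overlap those of another gene, for 28 of them on the opposite strand, and whether the counting used strand is not stated. Transcripts of 42 genes share a stretch of at least 150 nt at 95% identity or more with transcripts of another gene, whether an overlapping neighbour, a repeat or a pseudogene copy. Among the genes described above these include Mrpl3, Mrpl10, Mrpl18, Mrpl19, Mrpl23, Mrpl32, Mrpl33, Mrpl36, Mrpl43, Mrpl46, Mrpl47, Mrpl48, Mrpl53, Mrps11, Mrps16, Mrps18b, Mrps18c, Mrps21, Mrps30 and Mrps36, whose levels are uncertain to that extent. The pseudogene Mrpl23-ps1 was itself listed at 27.6 and 32.3 normalized CPM with vehicle and 31.4 and 28.9 with 5D, against 51.4 to 63.4 for Mrpl23. Mrpl48-ps stood at 3.14 and 3.80 with vehicle and 2.62 and 3.60 with 5D, and the 2 pseudogenes of Mrps36 stayed under 0.6 normalized CPM in every library.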

How the data were processed

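RNA-seq was compared between 2 libraries of vehicle-treated and 2 of 5D-treated ILC2s, grouped by their labels. The authors prepared cDNA with a SMARTer ultra low input kit, sequenced it on a NextSeq 500 and quantified reads in Partek with STAR 2.6.1 (CASAVA 1.8.2 is also listed in the submitters' processing notes) on mm10 with GENCODE M21. The deposited values are estimated counts per gene before normalization, of which 51.7% to 54.8% per library were whole within 1e-06. They were rounded here, although the design had foreseen whole counts. Vehicle libraries totalled 23239764 and 20096513, and 5D libraries 26912647 and 28697196.

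Counts were scaled by the upper quartile. Genes with a mean normalized count under 1 or a sum under 10 were removed, as the authors did, which left 17650 of 22554 genes. edgeR 4.0.16 (glmQLFit, glmQLFTest, R 4.3.3) tested 5D against vehicle with no covariate, two-sided, adjusted over the tested genes by Benjamini-Hochberg. Gene Set Analysis, the authors' method, was not run. The common biological coefficient of variation was 8.51%. Intervals are 95% intervals from the fit, and a standard error is the size of the log2 fold change over the square root of F. The code was tested on simulated data.

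The genes, lists and tests were chosen with earlier results of these data known. Named are the 5 highest and 5 lowest per kilobase, the 3 largest and 3 smallest fold changes with a mean of at least 100 counts, 14 genes of known function, genes at an unadjusted p-value under 0.05 (none), and in each other list those with an adjusted p-value under 0.05 or the 2 smallest p-values; further genes are named for a described feature. Of 27 assembly and 17 translation symbols 26 and 16 were in the table. Positions of all 78 genes matched GENCODE M21. Promoters are from RefSeq, GRCm38.p6. Near-identical transcripts were searched with BLAST 2.17.0. Figures were drawn with matplotlib 3.10.9.

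Alternatives were TMM and RLE factors, library totals alone, no filter, filterByExpr, DESeq2 1.42.0, limma-voom (limma 3.58.1), the replicate number as a block, loess offsets on exonic length, another gene length, and leaving out each library. The comparison with genes at or above the level of the lowest mitochondrial ribosomal protein gene was chosen after seeing the data.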

Additional observations from a re-analysis of the deposited data

How the results depend on the processing

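No mitochondrial ribosomal protein gene was called at an adjusted p-value under 0.05 under any of the 13 alternative fits, and at an unadjusted one only without 5D replicate 2, so that leaving out a library gave 0 to 1 genes higher (Mrpl23) and 0 to 2 lower (Mrpl20 and Mrps23, named after their values were seen). Over all genes, 5 were called higher and 12 lower, but 11 and 35 with no filter, 16 and 42 with DESeq2, and 9 and 23 with limma-voom; filterByExpr gave 19 lower. With the replicate number as a block 9 were higher and 32 lower. The numbers are shared by the groups, but only 2 pairs exist and same-numbered libraries did not deviate together (correlation 0.0101 over 14133 genes), so the block was not used as a pairing, and it called no mitochondrial ribosomal protein gene. Leaving out a library gave 3 to 73 genes higher and 12 to 107 lower, the most without vehicle replicate 1 and the fewest without 5D replicate 2, with the lone library assumed to vary like the other group; the cause was not tested.

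The median log2 fold change ranged over the libraries left out from -0.01251 to 0.02400 for all 78 genes, from -0.01608 to 0.01707 for the large subunit, from -0.002785 to 0.02650 for the small subunit and from -0.3177 to -0.2169 for the mitochondrially encoded proteins. Leaving out a library turned the sign of 15 to 23 of the 78 genes, including fold changes of up to 0.109 in size on the log2 scale. Length offsets gave 0.005906 for Mrpl10 and -0.006714 for Mrpl47, and the block gave -0.001242 for Mrpl47. Without 1 library in turn, the log2 fold change ranged from -0.05443 to 0.03154 for Mrpl10, -0.1757 to 0.04279 for Mrpl11, -0.04089 to 0.04237 for Mrpl28, -0.09254 to 0.1357 for Mrpl3, -0.03630 to 0.06479 for Mrpl45, -0.07385 to 0.06582 for Mrpl47, -0.06021 to 0.07682 for Mrpl52 and -0.01198 to 0.01714 for Mrpl54. It ranged from -0.05227 to 0.1625 for Mrpl58, -0.09407 to 0.02750 for Mrps12, -0.04911 to 0.02289 for Mrps16, -0.05922 to 0.09334 for Mrps18b, -0.04685 to 0.05744 for Mrps18c, -0.08141 to 0.03575 for Mrps21, -0.2077 to 0.04392 for Mrps35 and -0.07142 to 0.2169 for Ptcd3. The summed level differed by -0.353% between the groups, by 0.119% with library totals and 0.289% with TMM, and by -1.42% to 0.714% without a library. With 2 libraries a group, changes inside the intervals given cannot be told from none.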
